A study of Mus musculus with 85 samples.

Results

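Resting bone-marrow-derived macrophages (BMDMs) of the inbred mouse strains A/J and BALB/cJ were compared across all genes. The comparison used the 4 libraries that the labels place in these 2 groups, 2 per strain, of 85 libraries in 30 groups in the whole series. The series asks how natural genetic variation sets macrophage gene expression in the liver and in culture. Its other libraries hold Kupffer cells and their neighbours in the liver, BMDMs of C57BL/6J mice, BMDMs treated with Kdo2-lipid A (KLA, a purified lipid ligand of the endotoxin receptor TLR4), and cells of hybrid mice. According to the methods of the study, marrow came from males of 8 to 12 weeks and was grown with macrophage colony-stimulating factor (M-CSF), partly from L929-conditioned medium. The A/J and the BALB/cJ cells both received the saline vehicle (PBS) for 2 h, with no stimulus, and no transgene or deletion is given for either group. For comparison, the same strain contrast was taken in BMDMs given KLA at 100 ng/ml for 2 h and in untreated Kupffer cells, each with 2 libraries per strain, and the levels of 2 resting C57BL/6J libraries were set beside them.

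BMDMs are grown from marrow precursors by M-CSF, a growth factor that keeps macrophages alive and lets a share of them divide. They take up lipoproteins, dead cells and microbes, break them down in lysosomes and return cholesterol to apolipoproteins through the transporters Abca1 and Abcg1. Even at rest they make complement C1q, chemokines and receptors of innate immunity, and inbred strains are known to differ in several of these families.

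The 4 resting libraries held between 22.83 M and 36.86 M counts each (M, mega). Levels are given in TPM, the unit of transcript abundance that is scaled for gene length and depth. The macrophage label held: Csf1r, the receptor of M-CSF, lay between 709 and 845 TPM and Cd68, a lysosomal macrophage protein, between 1800 and 2440 TPM in the 4 libraries. All 14 macrophage identity genes were expressed, and 1, Cx3cr1, was called between the strains. Their summed level was 21200 and 19000 TPM in A/J and 30900 and 26300 TPM in BALB/cJ, mostly Lyz2, with 7 genes passing the adjusted p lower and 3 higher in A/J at any size, and its part in the results was not tested. None of 9 lymphocyte, 8 mast cell or 7 stromal genes reached the level required for testing, and 11 dendritic cell genes summed to at most 19.1 TPM. The platelet and erythroid genes were carried by Pf4, at 162 to 227 TPM, which macrophages can also make. The 14 genes of neutrophils and their precursors summed to 125 and 186 TPM in A/J and to 151 and 206 TPM in BALB/cJ, with Elane, Mpo and Ctsg under 1 TPM everywhere, so these sums overlapped. The 8 monocyte genes summed to 41.7 and 48.1 TPM in A/J and to 74 and 93.4 TPM in BALB/cJ, mostly Ccr2, and their part in the results was not tested. Xist was at most 0.008 TPM and the Y-linked gene Ddx3y was at 21.9 to 26.4 TPM in all 4, as in males.

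Of 8314 genes tested, 362 were called, which is 4.35% of the genes tested, with 124 (1.49%) higher and 238 (2.86%) lower in A/J. These shares are the background for the counts of called members in the gene lists below, and no list was tested as a set. A call required an adjusted p under 0.05 in the quasi-likelihood test of edgeR and an absolute log2 difference above 1, and differences are given as A/J minus BALB/cJ with their standard error. Without the limit on size, 3755 genes (45.2%) passed the adjusted p, 1905 higher and 1850 lower in A/J, so small differences were nearly balanced in direction and large ones were more often lower in A/J. The median log2 difference over all genes tested was 0.00253. The TPM of the strains did not overlap for 362 of the 362 called genes, against 74.4% of the genes tested. The calls come from these same libraries, so this separation follows largely from the call and is no further support.

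**Figure D1:**
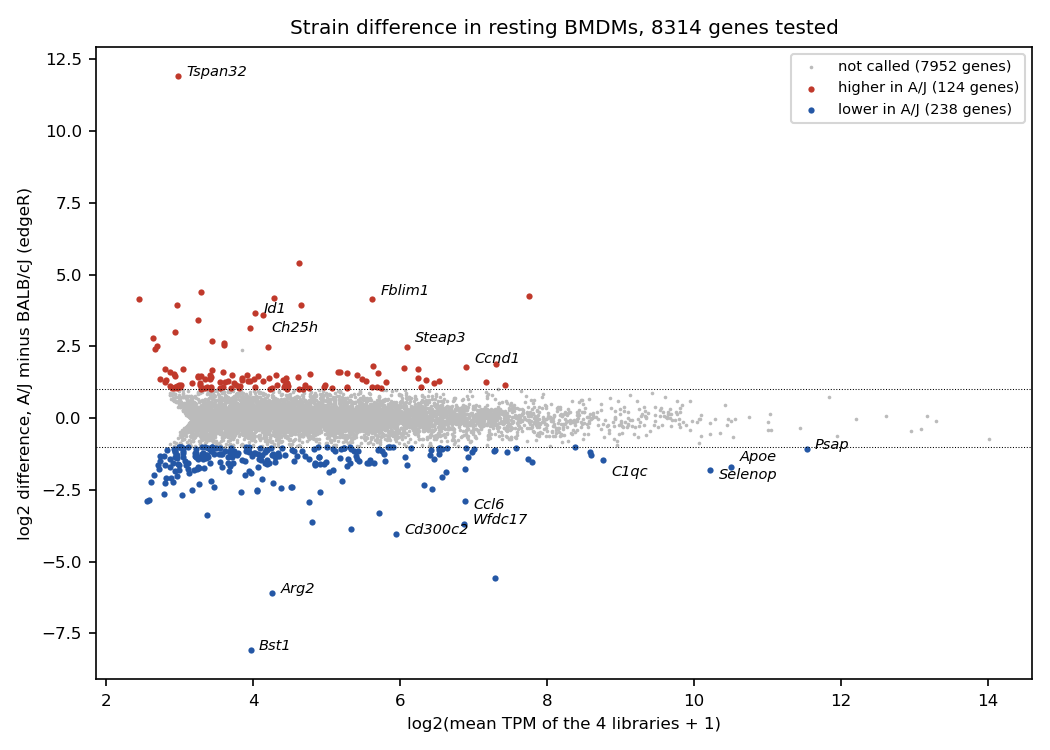
Log2 difference between A/J and BALB/cJ resting BMDMs (edgeR, vertical axis) against the mean level on a log2(TPM + 1) scale (horizontal axis), 1 point per gene, for 8314 genes. Red points are the 124 genes called higher and blue points the 238 called lower in A/J, and dotted lines mark a log2 difference of 1 in either direction. The position of Tspan32 depends on the fit, since it had no counts in BALB/cJ.

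Tspan32, a tetraspanin of blood cells on chromosome 7 (143004907 to 143019486), had 341 and 674.5 counts in A/J and 0 counts in both BALB/cJ libraries. With a floor of 3 counts per BALB/cJ library, it was at least 165-fold higher in A/J. In the opposite direction Bst1, a cell-surface enzyme that makes cyclic ADP-ribose (chromosome 5, 43818880 to 43843468), was at 0.079 and 0.121 TPM in A/J and at 32.5 and 25.8 TPM in BALB/cJ. Its log2 difference was −8.10 ± 0.24 (edgeR adjusted p = 1.2e-08), so mapped reads of both genes were close to absent from 1 strain. According to the study's methods, the strain genomes used for mapping hold small variants but no larger structural ones. Whether missing or altered sequence took part in these low counts was not tested.

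Fblim1, which links filamin to cell adhesions, was at 93.8 and 88.6 TPM in A/J and 4.73 and 5.06 TPM in BALB/cJ (log2 4.15 ± 0.093, edgeR adjusted p = 1.5e-09). The cytokine Gdf15 (20.1 and 18 TPM against 2.21 and 4.16 TPM), the surface protein Cd34 (18.3 and 20.4 against 3.88 and 1.94) and the pentraxin Nptx1 (15.3 and 15.8 against 1.48 and 1.29) were also higher in A/J, with log2 differences of 2.53 to 3.40. That their libraries did not overlap between the strains was part of the rule that picked these genes.

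Among genes lower in A/J, Wfdc17, a small secreted protein of macrophages, was at 17.9 and 17.1 TPM against 215 and 215 TPM in BALB/cJ (log2 −3.70 ± 0.10, edgeR adjusted p = 7.1e-09). Ldlrad3 (a membrane protein with LDL receptor repeats), Rras2 (a Ras-like GTPase), Penk (the enkephalin precursor) and Spats2 were at 1.1 to 2.29 TPM in A/J and 7.93 to 15.5 TPM in BALB/cJ. Their log2 differences ran from −2.89 to −2.64. These 4 were thus low-level transcripts in both strains, and Penk had the widest spread in BALB/cJ, at 15.5 and 9.05 TPM.

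Over a majority of the tested complement genes, levels were lower in A/J. Of 12 members tested, 7 were called lower and none higher, with a median log2 of −1.09. C1qc, C1qb and C1qa encode the chains of C1q, which starts the classical pathway, and lie side by side on chromosome 4. C1qc (136889801 to 136892936) was at 241 and 240 TPM in A/J and 611 and 632 TPM in BALB/cJ (log2 −1.45 ± 0.077, edgeR adjusted p = 5.7e-07). C1qb (136880126 to 136886200) was at 247 and 220 TPM against 528 and 556 TPM (−1.29 ± 0.086). C1qa (136895916 to 136898844) was at 238 and 215 TPM against 419 and 456 TPM (−1.02 ± 0.086), and its call was lost in 5 alternatives, at −0.94 to −0.97, among them leaving out A/J replicate 2 (−0.95) or BALB/cJ replicate 2 (−0.96). The 3 chains thus differed by similar steps, with C1qa nearest to the limit.

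C3, the central component, was at 16.5 and 12.4 TPM in A/J and 36.7 and 24.3 TPM in BALB/cJ (−1.16 ± 0.25, edgeR adjusted p = 0.021). Factor B (Cfb) and the protease C1ra were lower by −1.64 and −1.22, but 84.9% and 50.8% of their 50-base words also occur in transcripts of other genes, so their levels are uncertain. Of the 12, 11 had a negative log2 difference and 10 passed the adjusted p in that direction at any size. Properdin (Cfp, −0.27) and the receptor C3ar1 (−0.29) were among these with small differences, and the C5a receptor C5ar1 had a log2 of 0.41.

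Promoter sequence is shown for genes of this group and for some genes of the results below, because neighbours such as the C1q genes moved together. Every promoter shown held a motif match, so those shown do not stand for the called genes at large. The promoters of Apoe, Ccl6, Cyp27a1, Mcm6 and Cx3cr1, for example, held none. Promoters from RefSeq on GRCm38.p6 (mm10 coordinates) were searched in the 250 bases before the start of transcription, on both strands. Capitals mark letter matches to a motif, and lower case marks all other bases. C1qb lies on the minus strand at chr4:136886201-136886450 and C1qc on the minus strand at chr4:136892915-136893164. Fcgr4 and Selenop, both lower in A/J, lie on the plus strand at chr1:171018676-171018925 and chr15:3270517-3270766, and Ch25h, higher in A/J, on the minus strand at chr19:34475149-34475398.
C1qb: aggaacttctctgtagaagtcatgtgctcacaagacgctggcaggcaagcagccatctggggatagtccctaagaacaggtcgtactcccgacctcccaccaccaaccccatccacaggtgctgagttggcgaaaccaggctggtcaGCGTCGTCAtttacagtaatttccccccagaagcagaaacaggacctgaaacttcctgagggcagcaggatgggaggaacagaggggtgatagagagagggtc
C1qc: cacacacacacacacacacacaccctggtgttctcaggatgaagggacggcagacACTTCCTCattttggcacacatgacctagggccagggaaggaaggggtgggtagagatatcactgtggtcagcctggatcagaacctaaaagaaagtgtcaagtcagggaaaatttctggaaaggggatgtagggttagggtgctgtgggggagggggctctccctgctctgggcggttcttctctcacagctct
Fcgr4: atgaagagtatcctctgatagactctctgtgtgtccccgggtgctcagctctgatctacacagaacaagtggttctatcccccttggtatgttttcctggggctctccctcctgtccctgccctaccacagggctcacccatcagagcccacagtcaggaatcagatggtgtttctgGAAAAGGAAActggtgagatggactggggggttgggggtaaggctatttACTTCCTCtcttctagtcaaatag
Selenop: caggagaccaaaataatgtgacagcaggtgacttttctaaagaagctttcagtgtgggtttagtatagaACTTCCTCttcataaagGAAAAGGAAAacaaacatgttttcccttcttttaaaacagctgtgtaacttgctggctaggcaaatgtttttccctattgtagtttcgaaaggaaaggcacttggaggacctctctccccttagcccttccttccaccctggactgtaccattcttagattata
Ch25h: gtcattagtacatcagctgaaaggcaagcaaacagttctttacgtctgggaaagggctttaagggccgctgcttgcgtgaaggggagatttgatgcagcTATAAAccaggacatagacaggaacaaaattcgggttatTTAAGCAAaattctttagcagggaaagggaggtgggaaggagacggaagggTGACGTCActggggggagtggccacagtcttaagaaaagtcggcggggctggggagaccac
C1qc held the PU.1 (ETS) letters GAGGAAGT on the reverse strand, from 195 to 188 bases before the start, and C1qb held 1 match to TGACNNNGC, the core of the NRF2 and BACH1 element. Fcgr4 and Selenop each held both GAGGAAGT and the core of the interferon-stimulated response element. The latter match reads GAAAAGGAAA in both genes and contains GGAA, the centre of ETS motifs. Ch25h held TGACGTCA (the CRE), TTGCNNAA (C/EBP, reverse strand) and the letters TATAAA. The last lay from 151 to 146 bases before the start, and whether they act as a TATA box was not tested.

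Over all genes, 6745 of the 8314 tested had a RefSeq promoter. GAGGAAGT was present in 2.74% of these, in 11 of 188 promoters (5.85%) of genes lower in A/J and in 0 of 98 of genes higher in A/J. The core of the interferon-stimulated response element was present in 2.77% of all, 7.45% of lower and 1.02% of higher genes, TTGCNNAA in 7.29%, 9.57% and 2.04%, and TGANTCA (AP-1) in 4.15%, 7.45% and 5.10%. TATAAA was in 5.89% of all, 5.85% of lower and 12.2% of higher genes. The remaining shares were 2.70%, 0.532% and 4.08% for the CRE and 9.34%, 6.91% and 11.2% for CACGTG, the E-box of the MiT/TFE factors. TGACNNNGC gave 12.4%, 17.6% and 14.3%, TTCNNNGAA (STAT) 5.78%, 3.72% and 4.08%, and the NF-kB motif 0.282%, 0.532% and 1.02%, while the DR4 element of LXR was in no promoter. The DR4 element was searched only by its exact consensus letters, so sites with other letters were not counted. Whether these promoters hold such LXR sites was not tested. The shares above are descriptions without a test. Members of gene families lie close together and share promoter sequence: Pirb, Pira1, Pira2, Lilra6 and Gm14548, all on chromosome 7, make up 5 of the 11 lower genes with GAGGAAGT.

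Several genes of cholesterol efflux and of sterol synthesis were lower in A/J, while Ch25h was higher. Of 14 tested members of the list of efflux genes and LXR targets (LXR is the nuclear receptor that senses oxysterols), 5 were called lower and none higher (median −0.39). Apoe, the main apolipoprotein of macrophages, was at 701 and 713 TPM in A/J and 2320 and 2080 TPM in BALB/cJ (log2 −1.72 ± 0.090, edgeR adjusted p = 5.2e-07). The phospholipid transfer protein Pltp was at 69.9 and 70.2 TPM against 157 and 186 TPM (−1.37 ± 0.094). The transporter Abca1 was at 23.6 and 19.8 TPM against 47.5 and 44 TPM (−1.15 ± 0.097), and Abcg1 at 28.6 and 23.9 TPM against 47.3 and 56.9 TPM (−1.07 ± 0.11). The call of Abcg1 was lost without A/J replicate 2 (−0.94), without BALB/cJ replicate 2 (−0.92) and with limma (−0.96). Apoc2, another apolipoprotein of the Apoe cluster, was lower by −1.58, but 90.4% of its words are shared. Not every target moved this way, since Lpl, lipoprotein lipase, had a log2 of 0.60 and Arl4c one of 0.74.

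Of 23 tested genes of oxysterol and cholesterol synthesis, 20 had a negative log2 difference (median −0.61) and 18 passed the adjusted p at any size in that direction, where 22.3% of all genes did. The size limit was passed by Cyp27a1, Mvd and Insig1. Cyp27a1, which makes 27-hydroxycholesterol, was at 15.6 and 15.3 TPM in A/J and 44.1 and 45.6 TPM in BALB/cJ (log2 −1.61 ± 0.086, edgeR adjusted p = 5.7e-07). Mvd, an enzyme of the mevalonate pathway, was at 11.6 and 10.4 TPM against 24.2 and 28.7 TPM, and Insig1, which holds back the sterol regulator SREBP, at 83.8 and 76.2 TPM against 145 and 169 TPM. The Insig1 call was lost in 5 alternatives, among them leaving out A/J replicate 2 (−0.98) or BALB/cJ replicate 2 (−0.93).

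Ch25h makes 25-hydroxycholesterol and was the only member called higher in A/J. It was at 29.2 and 32.3 TPM in A/J and at 2.41 and 2.5 TPM in BALB/cJ (log2 3.58 ± 0.14, edgeR adjusted p = 7.3e-08). The receptor for a product of this pathway, Gpr183, had a log2 of 0.68, under the size limit. Ch25h and Abcg1 were picked out by the study from these same libraries, so their direction carries no independent weight.

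Of 4 fatty acid binding proteins tested, 3 were called lower and 1 higher in A/J. Fabp4 was at 13.5 and 13.3 TPM against 61.2 and 55.9 TPM (log2 −2.21 ± 0.12), Fabp5 at 74.9 and 82.1 TPM against 177 and 165 TPM (−1.20 ± 0.084) and Fabp3, with 37.3% shared words, at 3.71 and 6.28 TPM against 15.3 and 10.6 TPM (−1.42 ± 0.27). Fabp7, named after its values were seen, was at 12.3 and 18.2 TPM against 8.3 and 5.24 TPM (1.10 ± 0.25, edgeR adjusted p = 0.0057). The 3 lower genes were the 3 called of 25 tested fatty acid genes and, with Apoe, the 4 called of 17 tested genes of lipid-associated macrophages. Lpl and Trem2, other members of the latter list, were not called.

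**Figure D2:**
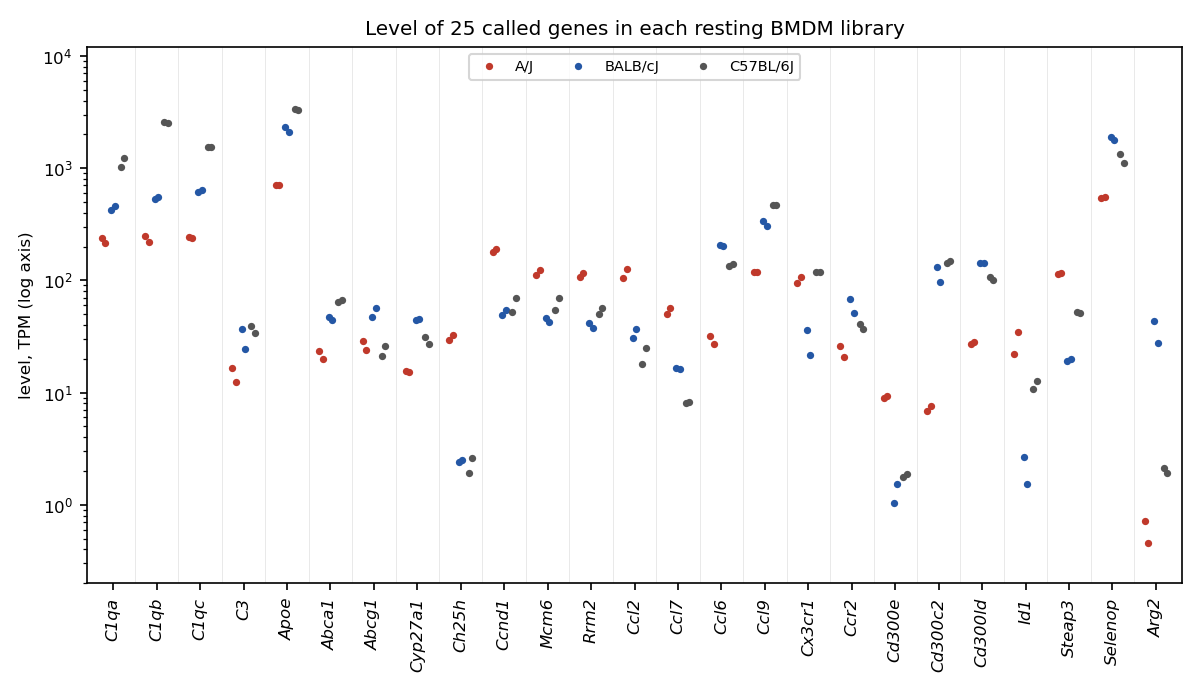
Level in TPM (log axis) of 25 called genes in each resting BMDM library, with 2 points per strain for A/J (red), BALB/cJ (blue) and C57BL/6J (grey). The C1q genes and Apoe lie lowest in A/J and highest in C57BL/6J, while for Ch25h A/J stands apart from both other strains.

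Genes of cell division were higher in A/J throughout. All 26 tested members of the proliferation list had a positive log2 difference (median 0.61), and all 26 passed the adjusted p at any size, where 22.9% of all genes passed in that direction. The size limit was passed by 5, which act at the entry into and during DNA replication. Cyclin D1 (Ccnd1) was at 178 and 192 TPM in A/J and 49 and 54.1 TPM in BALB/cJ (log2 1.77 ± 0.087, edgeR adjusted p = 3.6e-07), and cyclin E1 (Ccne1) at 22.1 and 22.2 TPM against 8.65 and 7.52 TPM. The ribonucleotide reductase subunit Rrm2 was at 106 and 115 TPM against 41.7 and 37.7 TPM (1.40 ± 0.086). The replication helicase subunits Mcm6 and Mcm2 differed by 1.33 ± 0.084 and 1.06 ± 0.078.

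Other members passed the adjusted p below the size limit. Mki67, a marker of cycling cells, was at 227 and 204 TPM against 162 and 158 TPM (log2 0.36 ± 0.088), Ccnb1, cyclin B1, at 39.8 and 39 TPM against 28.8 and 29.4 TPM (0.36 ± 0.075), and Top2a at 158 and 165 TPM against 92.8 and 86.2 TPM (0.77 ± 0.080). In bulk RNA, a larger share of dividing cells and more RNA per dividing cell cannot be told apart. Csf1, the gene of M-CSF itself, was at 21.4 and 14.9 TPM in A/J and 5.04 and 7.24 TPM in BALB/cJ (1.49 ± 0.24, edgeR adjusted p = 0.0048). Its receptor Csf1r had a log2 of 0.03 ± 0.095.

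**Figure D3:**
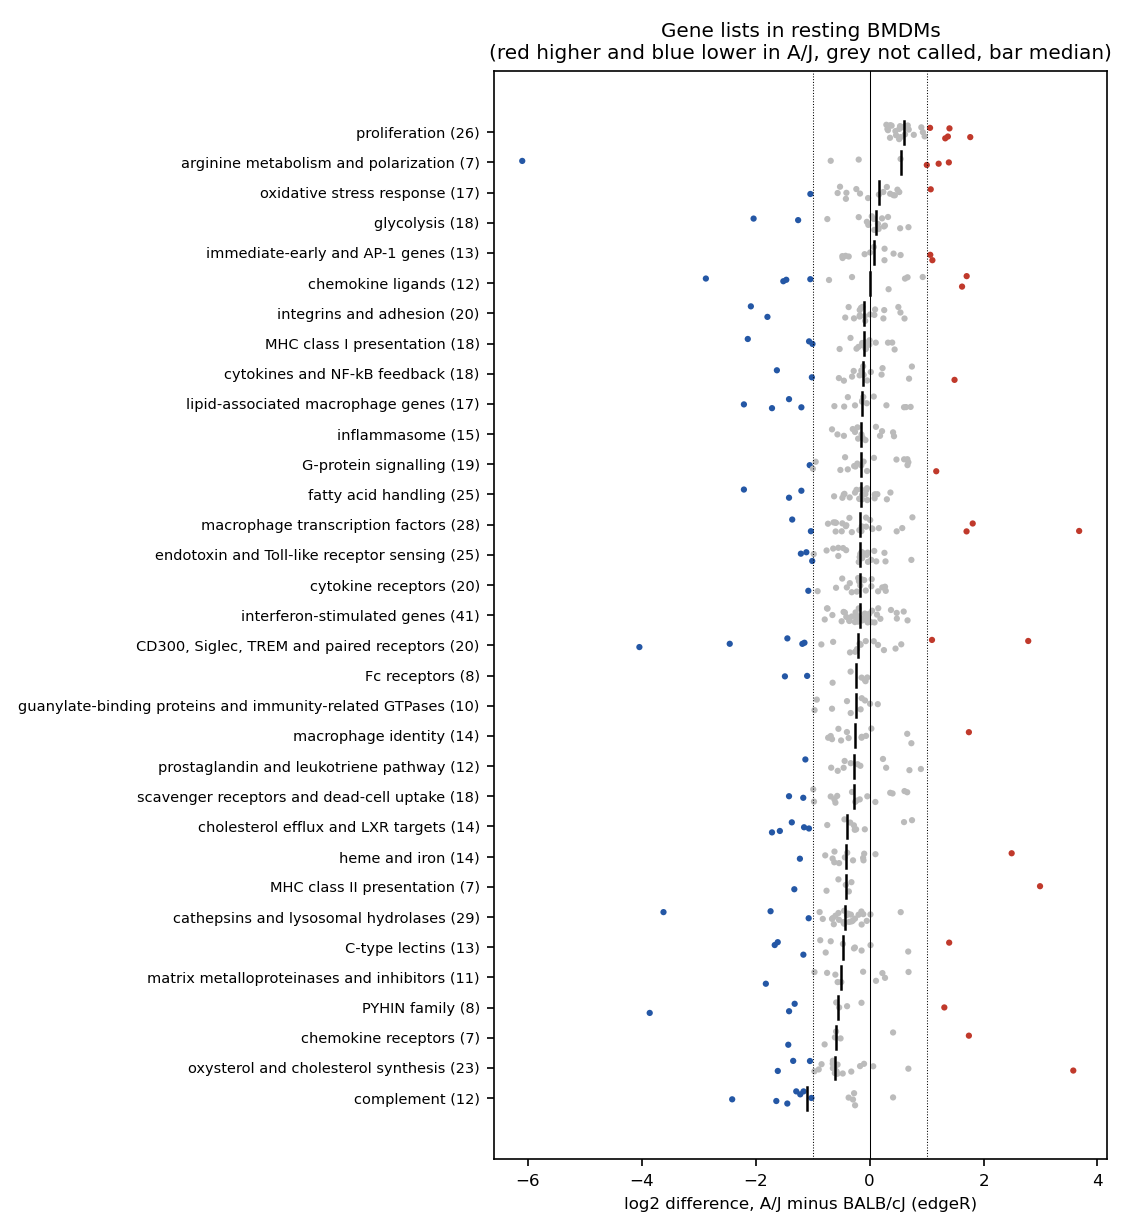
Log2 difference between A/J and BALB/cJ (horizontal axis, edgeR) of the tested members of each gene list with at least 7 tested members, listed by the median (black bar), with the number tested in parentheses. Red points were called higher and blue points lower in A/J. Proliferation has the highest median (0.61) and complement the lowest (−1.09).

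Of 12 chemokine ligands tested, 2 were called higher and 4 lower in A/J, and the genes lie together on chromosome 11. The monocyte attractants Ccl2 and Ccl7 were higher: Ccl2 was at 104 and 126 TPM in A/J and 30.5 and 37.1 TPM in BALB/cJ (log2 1.70 ± 0.12, edgeR adjusted p = 5e-06), and Ccl7 at 49.7 and 56.5 TPM against 16.5 and 16.2 TPM (1.62 ± 0.12). A run of neighbours between 83002125 and 83706269 held 7 called genes of 15 tested, of which 6 were lower, namely Slfn8, Ccl5, Ccl9, Ccl6, Ccl3 and Wfdc17. Ccl6 was at 31.6 and 27.2 TPM against 205 and 203 TPM (−2.88 ± 0.094) and Ccl9 at 118 and 119 TPM against 337 and 306 TPM (−1.52 ± 0.083). Ccl3 and Ccl5 were lower by −1.04 and −1.46.

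Of 7 chemokine receptors tested, 1 was called higher and 1 lower. Ccr2, the receptor for Ccl2, was at 26.2 and 20.7 TPM in A/J and 68.2 and 51.3 TPM in BALB/cJ (log2 −1.43 ± 0.16, edgeR adjusted p = 0.00052), and carried most of the monocyte marker sum given above. With the crossed pairing of replicates its edgeR adjusted p was 0.06. Cx3cr1, the fractalkine receptor, was at 95.2 and 108 TPM against 35.9 and 21.5 TPM (1.74 ± 0.27, edgeR adjusted p = 0.0072), and its edgeR adjusted p rose to 0.058 without A/J replicate 2 and to 0.081 with no filter on low counts. Ccr1 and Cxcr4 had log2 differences of −0.59 and −0.79 and were not called.

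The CD300 family on chromosome 11, paired receptors that sense lipids, was split by strain. Cd300c2 was at 6.82 and 7.6 TPM in A/J and 131 and 96.2 TPM in BALB/cJ (log2 −4.04 ± 0.16, edgeR adjusted p = 6.3e-07), and Cd300ld at 26.8 and 28.3 TPM against 144 and 143 TPM (−2.46 ± 0.080). The opposite order was found for Cd300e, at 8.95 and 9.39 TPM in A/J and 1.04 and 1.53 TPM in BALB/cJ (2.78 ± 0.20), and for Cd300lf, at 100 and 113 TPM against 46.9 and 47.8 TPM (1.09 ± 0.085). These 4 lie within 1 run of called neighbours, 7 of 11 tested, between 114667818 and 115247025, and the tested relatives Cd300a and Cd300lb had log2 differences of −0.85 and −0.64.

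Of all 20 tested genes of the CD300, Siglec, TREM and paired receptor list, 2 were called higher and 5 lower. The sialic acid receptor Cd33 was at 29 and 24 TPM against 63 and 73.5 TPM (log2 −1.45 ± 0.11), and Slamf7 was lower by −1.15. Pirb, the inhibitory paired receptor, was at 122 and 99 TPM against 242 and 234 TPM, and 43.7% of its words are shared with its relatives. In its cluster on chromosome 7 all 5 placed and tested genes between 3712505 and 3915571 were called lower. Trem2 had a log2 of 0.07 ± 0.093.

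Of 13 C-type lectins tested, 1 was called higher and 3 lower in A/J. Clec4a1 was at 20.2 and 17.5 TPM against 65.6 and 47.2 TPM (log2 −1.67 ± 0.16) and Clec4a3 at 12.5 and 15.6 TPM against 42.3 and 39.9 TPM (−1.61 ± 0.12), while Clec5a, which signals through DAP12, was at 26.7 and 25 TPM against 10.3 and 8.24 TPM (1.40 ± 0.11). Of 8 Fc receptors, the activating receptor Fcgr4 (20.5 and 25.5 TPM against 61 and 62.4 TPM, log2 −1.49 ± 0.11) and the neonatal receptor Fcgrt (34.1 and 33.4 TPM against 68 and 68.9 TPM, −1.10 ± 0.075) were called lower, and all 8 had negative log2 differences. The scavenger receptor Colec12 (120 and 121 TPM against 347 and 265 TPM) and the dead-cell bridge Mfge8 (10.4 and 11.1 TPM against 22.3 and 23.7 TPM) were the 2 called of 18 uptake genes, both lower. Over all genes, 2.86% were called lower.

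Of 25 tested genes of endotoxin and Toll-like receptor sensing, 3 were called, all lower in A/J, where 2.86% of all genes were called lower. Tlr9, which senses DNA, was at 11.9 and 10.5 TPM against 23.2 and 22.5 TPM (log2 −1.11 ± 0.092), with −0.97 and no call by limma. The lipopeptide receptor subunit Tlr1 lay at the limit (−1.01 ± 0.093) and lost its call in 6 alternatives, among them leaving out BALB/cJ replicate 1 (−0.88) or A/J replicate 2. Acod1, which makes itaconate, was at 12.5 and 11.8 TPM against 33.6 and 19.3 TPM (−1.21 ± 0.28, edgeR adjusted p = 0.026), and lost its call in 6 alternatives, among them leaving out BALB/cJ replicate 1 (−0.75), A/J replicate 1 (adjusted p = 0.15) or A/J replicate 2 (adjusted p = 0.17). Cd14, the co-receptor for endotoxin, had a log2 of 0.73 ± 0.086 (949 and 1030 TPM against 544 and 584 TPM), short of the size limit. Aoah, which inactivates endotoxin, was at 15.5 and 12.7 TPM against 19.1 and 19.9 TPM (−0.55 ± 0.11) and was not called.

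Of 18 cytokine and NF-kB feedback genes tested, Csf1, given above, was called higher, and 2 were lower. Tnfaip2 (40.1 and 28.2 TPM against 96.6 and 103 TPM, log2 −1.63 ± 0.15) and Vegfa (5.16 and 4.59 TPM against 8.95 and 9.69 TPM, −1.02 ± 0.12) were these. The call of Vegfa was lost in 6 alternatives, at −0.81 to −0.96, among them leaving out A/J replicate 2 (−0.93) or BALB/cJ replicate 2 (−0.95). Of 20 cytokine receptors, Csf3r was the 1 called gene, at 24.4 and 22.9 TPM against 48.1 and 46.6 TPM (−1.08 ± 0.078), with −0.97 and no call by limma. This count is near the share of 4.35% called over all genes tested.

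Among interferon-stimulated genes, none of 41 tested was called by edgeR, DESeq2 or limma, 7 had an unadjusted p under 0.05 in edgeR, where 52.8% of all genes did, and the median log2 was −0.18. The absence of calls stands beside 4.35% of all genes called. Their sum was 4000 and 5480 TPM in A/J and 5170 and 4690 TPM in BALB/cJ, so the strains overlapped and the replicates of A/J differed more than the strain means. Irf7, which drives the interferon response, was at 194 and 358 TPM in A/J and 449 and 426 TPM in BALB/cJ. The 10 tested guanylate-binding proteins and immunity-related GTPases and the 15 inflammasome genes also held no member called by any of the 3 tools, which is near the share over all genes, with 3 and 8 members at an unadjusted p under 0.05 in edgeR.

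The PYHIN family on chromosome 1, proteins that bind DNA and are induced by interferon, did differ, with 3 of 8 lower and 1 higher. Mndal was at 4.38 and 6 TPM in A/J and 75.1 and 70.9 TPM in BALB/cJ (log2 −3.86 ± 0.12, edgeR adjusted p = 1.8e-08), and Ifi203 at 46.5 and 52.5 TPM against 136 and 114 TPM (−1.42 ± 0.10). Ifi211 was lower by −1.32 and Ifi209 higher by 1.31 ± 0.32. The call of Ifi209 was lost in 8 of the alternatives, among them leaving out A/J replicate 1 (adjusted p = 0.078), A/J replicate 2 (adjusted p = 0.17) or BALB/cJ replicate 2 (adjusted p = 0.057). Of their words, 26% in Mndal, 12.7% in Ifi203, 72.8% in Ifi211 and 35.2% in Ifi209 are shared with other transcripts, so levels within the family are uncertain.

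Genes of the major histocompatibility complex on chromosome 17 were called in both directions. H2-DMb1, a chain of the peptide exchanger of class II, was at 12 and 11.8 TPM in A/J and 1.45 and 1.38 TPM in BALB/cJ (log2 2.99 ± 0.19, edgeR adjusted p = 2e-06), while its partner H2-DMa was at 8.65 and 8.89 TPM against 18.7 and 23.2 TPM (−1.32 ± 0.13). Of 18 class I genes tested, 3 were lower: H2-T22 by −2.14, H2-T23 by −1.06 while H2-Q6 lay at the limit (−1.004 ± 0.25). The calls of H2-T23 and H2-Q6 were lost without A/J replicate 1 (−0.86 and −0.67), and that of H2-Q6 in 5 further alternatives, among them leaving out BALB/cJ replicate 2 (−0.87). Shared words were 28.9% in H2-DMb1, 49.3% in H2-T22, 35.5% in H2-Q6 and 19.9% in H2-T23.

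The helix-loop-helix inhibitors Id1 and Id3, targets of BMP and TGF-beta signals, were higher in A/J. Id1 was at 22.2 and 34.9 TPM in A/J and 2.68 and 1.52 TPM in BALB/cJ (log2 3.68 ± 0.30, edgeR adjusted p = 3.8e-05), and Id3 at 60.7 and 92.2 TPM against 25.5 and 15.8 TPM (1.81 ± 0.32, edgeR adjusted p = 0.011). Klf4 was at 10.7 and 11.6 TPM against 2.13 and 4.52 TPM (1.70 ± 0.32). The adjusted p rose above 0.05 in edgeR for Id3 without BALB/cJ replicate 1 (0.089) or 2 (0.14) and with no filter on low counts (0.11), and for Klf4 without A/J replicate 1 (0.077) or 2 (0.073).

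Cebpb, a factor of myeloid differentiation and inflammation, was at 37.7 and 38.8 TPM against 75.9 and 111 TPM (log2 −1.36 ± 0.17), and Klf2 was lower by −1.03 ± 0.12. In all, 3 of 28 macrophage transcription factors were higher and 2 lower. Spi1, the gene of PU.1, which defines the macrophage lineage, had a log2 of −0.06 ± 0.096. Of 13 immediate-early genes, Fos (30.1 and 41.4 TPM against 18.1 and 14.3 TPM, 1.06 ± 0.17) and the phosphatase Dusp1 (25.8 and 32.8 TPM against 13.6 and 12.4 TPM, 1.10 ± 0.12) were higher. Without A/J replicate 2, Fos was at 0.81 and Dusp1 at 0.91, and neither was called. The call of Fos was also lost without BALB/cJ replicate 2 (0.92) and with shrunken DESeq2 estimates (0.99).

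Of 7 tested genes of arginine metabolism, 3 were called higher and 1 lower in A/J. Arg2, the mitochondrial arginase, was at 0.717 and 0.454 TPM in A/J and 43.8 and 27.8 TPM in BALB/cJ (log2 −6.10 ± 0.33, edgeR adjusted p = 1.1e-05), with 21.2% of its words shared. The arginine carrier Slc7a1 (30.5 and 30.4 TPM against 9.71 and 12.4 TPM, 1.39 ± 0.11), the arginine-making enzyme Ass1 (33.1 and 26.4 TPM against 12.6 and 11.7 TPM, 1.21 ± 0.13) and the polyamine enzyme Odc1 (22.5 and 25.7 TPM against 12 and 10.8 TPM, 1.00 ± 0.11) were higher. Odc1 lost its call in 7 alternatives, including both other scalings, at 0.90 to 1.00, and 46% of the words of Ass1 and 38.9% of those of Odc1 are shared.

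Steap3, the endosomal iron reductase, was at 114 and 116 TPM in A/J and 18.9 and 19.8 TPM in BALB/cJ (log2 2.49 ± 0.080, edgeR adjusted p = 1.5e-08). Ncoa4, which delivers ferritin for degradation, was lower by −1.23, with 41.1% shared words, and 12 of 14 iron genes had negative log2 differences. Gclc, the enzyme that limits glutathione synthesis, was at 50.9 and 53.1 TPM against 24.7 and 22.3 TPM (1.07 ± 0.083), and the secreted peroxidase Gpx3 was at 67.9 and 57.6 TPM against 110 and 134 TPM (−1.04 ± 0.11). The call of Gpx3 was lost in 5 alternatives, among them leaving out A/J replicate 2 (−0.92) or BALB/cJ replicate 2 (−0.89). The selenium carrier Selenop, whose promoter is shown above, was at 540 and 553 TPM against 1890 and 1780 TPM (−1.83 ± 0.086).

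In sugar metabolism Hk3, a hexokinase of blood cells, was at 37.7 and 39.2 TPM against 141 and 159 TPM (log2 −2.04 ± 0.087) and the aldolase Aldoc was lower by −1.26, at 2 of 18 tested glycolysis genes. Without BALB/cJ replicate 2 Aldoc fell just short of the size limit (−0.997). The share called lower over all genes was 2.86%.

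Of 29 lysosomal genes tested, 27 had a negative log2 difference, 22 passed the adjusted p at any size in that direction (against 22.3% of all genes), and 3 passed the size limit (against 2.86% called lower). Ctse, an aspartic protease, was at 4.31 and 4.2 TPM in A/J and 45.8 and 53.3 TPM in BALB/cJ (log2 −3.62 ± 0.11, edgeR adjusted p = 1.5e-08), and Ctsf at 4.62 and 3.72 TPM against 12.4 and 13.8 TPM (−1.74 ± 0.15). Psap, the precursor of the saposins, was among the most abundant transcripts, at 1940 and 2010 TPM against 3830 and 4040 TPM (−1.07 ± 0.088). With limma its difference was −0.99 and it was not called. The lysosomal phospholipase Pla2g15, at 60.5 and 58.7 TPM against 118 and 129 TPM (−1.13 ± 0.080), was the 1 called of 12 lipid mediator genes, where 4.35% of all genes were called.

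Among matrix genes, fibronectin (Fn1) was at 2.33 and 2.48 TPM against 11.7 and 7.61 TPM (log2 −2.09 ± 0.21) and thrombospondin 1 (Thbs1) at 15.4 and 15.4 TPM against 61 and 40.1 TPM (−1.80 ± 0.20), the 2 called of 20 adhesion genes. Over all genes, 4.35% were called. The metalloproteinase Mmp27 was at 3.76 and 3.71 TPM against 11.9 and 13.1 TPM (−1.82 ± 0.14). Among G-protein signalling genes, Rgs1, which dampens chemokine receptors, was at 208 and 274 TPM against 106 and 97.9 TPM (1.17 ± 0.12, edgeR adjusted p = 9.5e-05), and without A/J replicate 2 it was at 0.96 and not called. The lysosomal receptor Gpr137b, uncertain with 43.1% shared words, lay at −1.05 and lost its call in 4 alternatives, at −0.91 to −0.99. Marco and Sdc1 were below the level for testing, at 1.86 and 1.19 against 0.537 and 0.379 TPM and at 6.19 and 6.01 against 2.86 and 2.03 TPM. Rgs1, Ifi203, Arg2, Aoah, Marco and Sdc1 were likewise picked out by the study from these libraries.

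The most abundant genes called higher in A/J included several whose reads other copies in the genome can take. Tpm3, a tropomyosin, was at 409 and 410 TPM in A/J and 21.3 and 19 TPM in BALB/cJ (log2 4.27 ± 0.095), with 46.3% shared words. Rps2 and Hsp90aa1, with 69.9% and 60.9% shared words, differed by 1.24 and 1.22. Of 74 ribosomal protein genes tested, a group picked after values were seen, 6 were called, 3 in each direction, with Rpl28 at 8.19 and 5.5 TPM against 355 and 251 TPM and Rpl38 at 41.1 and 49.5 TPM against 2.27 and 3.41 TPM. Atp5g1, a subunit of ATP synthase, was at 44.1 and 48.1 TPM against 1.13 and 0.905 TPM, with 17.3% shared words. All of these are uncertain, and how the counting divides reads among copies in each strain was not tested. Over all genes with a value, 16.6% of called genes and 12.2% of tested genes had at least 20% shared words, and 9.43% and 5.61% had at least 40%.

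Other abundant called genes were little affected by shared words. The calcium-activated potassium channel Kcnn4 was at 119 and 145 TPM against 48.3 and 53.6 TPM (log2 1.30 ± 0.10), with no word shared. Litaf, a lysosomal membrane protein, was at 248 and 235 TPM against 498 and 543 TPM (−1.18 ± 0.085), with 1.61% shared.

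Called genes were found on every chromosome with at least 5 tested genes. The share called was 6.47% on chromosome 1, 6.03% on chromosome 4 and 5.79% on chromosome 17, against 1.60% on chromosome 15, 1.59% on chromosome 16 and 0.461% on chromosome 18. Runs of at least 4 called genes with gaps under 500000 bases numbered 7, and they hold the PYHIN, chemokine, CD300 and Pir and Lilr families and 3 stretches of the histocompatibility complex on chromosome 17. Neighbours within these runs did not always share a direction, as the CD300 and PYHIN genes show.

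The level of the called genes in resting C57BL/6J BMDMs, whose libraries the test did not use, was nearer to that of BALB/cJ for 224 of the 362 genes and nearer to that of A/J for 138, by the distance on a log2(TPM + 1) scale. It lay between the strains for 226, above both for 69 and below both for 67 genes. Among genes higher in A/J, C57BL/6J was nearer to BALB/cJ for 84 of 124, among them Ch25h (1.9 and 2.62 TPM in C57BL/6J), Ccl2 (17.9 and 24.9 TPM), Ccnd1 (51.8 and 69.5 TPM) and Cd300e (1.75 and 1.88 TPM). For Tspan32 it was nearer to A/J, at 11.4 and 13.2 TPM, as it was for Fblim1, at 151 and 133 TPM. Among genes lower in A/J, C57BL/6J was above both strains for C1qb (2570 and 2500 TPM) and Apoe (3330 and 3320 TPM), near BALB/cJ for Cd300c2 (144 and 149 TPM) and near A/J for Arg2 (2.11 and 1.9 TPM) and Ctse (3.74 and 2.24 TPM). These values are a description. The study mapped C57BL/6J reads to mm10 itself and those of A/J and BALB/cJ to genomes built from it. The part of this in the C57BL/6J levels was not tested.

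With KLA, 505 of 7601 genes (6.64%) were called between the strains, 180 higher (2.37%) and 325 lower (4.28%) in A/J, and the TPM of the strains did not overlap for 79.7% of genes. Of the 124 genes higher in A/J at rest, 107 were tested with KLA. Of these, 104 (97.2%) had a positive log2 difference, against 49.6% of all genes tested with KLA, and 87 were called higher. Of the 238 lower at rest, 185 were tested, 183 (98.9%) had a negative difference, against 50.4%, and 149 were called lower. No gene was called in opposite directions. The KLA libraries are separate from the resting ones, but the labels do not say whether they came from other mice or cultures. According to the study's methods, grown macrophages were seeded into plates before KLA was given. The shared signs are therefore not shown to be independent of the mice or cultures used.

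**Figure D4:**
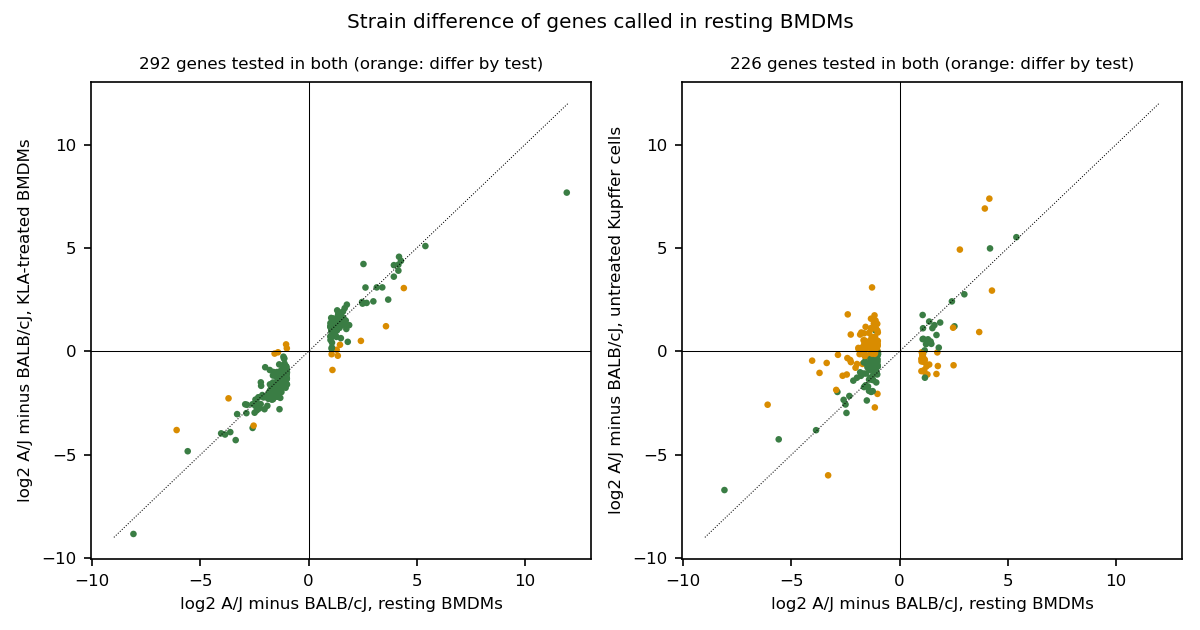
Log2 difference between A/J and BALB/cJ of genes called in resting BMDMs (horizontal axes) against the same difference in BMDMs given KLA (left, 292 genes tested in both) and in untreated Kupffer cells (right, 226 genes). Dotted lines mark equal differences, and orange points had a strain difference that changed by the direct test. With KLA the points follow the line, and in Kupffer cells many lie near 0.

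A direct test of whether the strain difference itself changed with KLA called 86 of 8581 genes (1.00%). Of the genes called at rest, 8 of 124 higher and 7 of 238 lower genes were among them, and the resting libraries enter both tests. Ch25h rose from 29.2 and 32.3 to 268 and 267 TPM in A/J and from 2.41 and 2.5 to 87.8 and 133 TPM in BALB/cJ, so that its strain difference fell by 2.40 ± 0.25 on the log2 scale (edgeR adjusted p = 0.0014). Dusp1 was at 151 and 133 TPM in A/J and 310 and 198 TPM in BALB/cJ with KLA, the opposite order to that at rest (change of −2.05 ± 0.32, edgeR adjusted p = 0.014). With KLA Ifi203 was at 70.8 and 59.1 TPM in A/J and at 75.1 and 53.1 TPM in BALB/cJ, where this was below its level at rest. The difference at rest was no longer seen (change of 1.33 ± 0.26, edgeR adjusted p = 0.032). The order of the strains was kept with KLA by Arg2 (5.86 and 6.34 against 90.9 and 73 TPM) and Wfdc17 (42.5 and 62.5 against 245 and 244 TPM), with smaller differences than at rest.

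In untreated Kupffer cells, which are macrophages that live in liver sinusoids, 246 of 7758 genes (3.17%) were called, 124 higher (1.6%) and 122 lower (1.57%) in A/J, and 52.5% of genes had TPM that did not overlap. Of the genes higher in A/J BMDMs, 50 were tested in Kupffer cells, 26 (52.0%) had a positive difference there, against 49.5% of all genes tested, 14 were called higher and 2 lower. Of those lower in A/J BMDMs, 176 were tested, 109 (61.9%) had a negative difference, against 50.5%, 37 were called lower and 8 higher. The median difference of the tested genes was 0.11 for the former and −0.19 for the latter in Kupffer cells, against 1.30 and −1.31 at rest in BMDMs. By the direct test, 809 of 9044 genes (8.95%) differed in their strain difference between the cell types, 4.96% with a more positive and 3.98% with a more negative value in Kupffer cells, including 57 of 124 higher and 130 of 238 lower genes. That test uses the resting libraries that also chose the genes.

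Bst1 was at 0.1 and 0.289 TPM in A/J and 23 and 16.9 TPM in BALB/cJ Kupffer cells (log2 −6.71 ± 0.37, edgeR adjusted p = 2.5e-05), and Fblim1 at 42.3 and 54.5 against 0.234 and 0.33 TPM (7.38 ± 0.22), the same order as in BMDMs. Cd300e was at 803 and 889 TPM in A/J and 26.9 and 27.7 TPM in BALB/cJ Kupffer cells (4.92 ± 0.14, edgeR adjusted p = 1.3e-06), where it is far more abundant than in BMDMs. None of the C1q genes was called in Kupffer cells, with C1qb at 4810 and 3690 against 4860 and 5040 TPM (−0.24 ± 0.19). The direct test gave a change of 1.03 ± 0.23 for C1qb (edgeR adjusted p = 0.011) and 1.19 ± 0.22 for C1qc (edgeR adjusted p = 0.0039), while that of C1qa, 0.63 ± 0.21, did not pass (edgeR adjusted p = 0.052). Steap3 and Tlr9 had the opposite sign in Kupffer cells. Steap3 was at 7.73 and 6.89 against 12.1 and 10.9 TPM there, which was not called (log2 −0.68 ± 0.19, edgeR adjusted p = 0.064, change of −3.19 ± 0.17, edgeR adjusted p = 9.6e-06), and Tlr9 at 22.6 and 22.3 against 8.7 and 6.96 TPM, called higher in A/J (change of 2.58 ± 0.19, edgeR adjusted p = 3.4e-05).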

How the data were processed

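Poly(A) RNA was sequenced with dUTP strand marking. The authors aligned reads by STAR to strain genomes built from mm10 and strain variants, shifted to mm10 positions and summarized over exons with HOMER (versions and the strand setting are not given in the sources used here). Overlapping genes on opposite strands therefore cannot be told apart. The study states that its A/J and BALB/cJ genomes leave out larger structural variants. The deposited tables give expected counts, in BMDMs as multiples of 0.5 that were rounded here, and TPM made by the authors from the same reads, which were used for levels and for a filter. Kupffer cells were in the same tables.

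The strain test was edgeR's robust quasi-likelihood fit (edgeR 4.0.16, R 4.3.3) after TMM scaling, on the libraries of each contrast. The study's methods named DESeq2 for such pairwise comparisons. Genes passed filterByExpr and a mean of more than 8 TPM in at least 1 group. Calls required an adjusted p under 0.05 (Benjamini-Hochberg) and an absolute log2 difference above 1. Changes of the strain difference were tested as interactions. All adjusted p-values printed come from edgeR unless another tool is named. Alternatives used DESeq2 1.42.0, limma 3.58.1 on log2(TPM + 1), other filters, scalings, fits and left-out libraries. The fits were first tested on simulated counts with known changes. There, unchanged genes made up more than the nominal share of those passing the adjusted p in every contrast, with no limit on size. Counts that pass the adjusted p at any size may therefore hold more false genes than the threshold states.

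The study's methods give 2 mice per group for the marrow, but the labels do not tie a library to a mouse, so p-values reflect how these libraries vary. Replicates differed beyond sampling noise (chi-square per degree of freedom 10.7 for A/J, 22.6 for BALB/cJ). The comparison, the 43 gene lists and the rule for named genes were chosen with earlier results of these data known. The rule takes up to 4 called members per list, the 10 largest called differences in each direction outside gene models and multigene families, the 8 most abundant called genes in each direction, and genes the study names. The largest differences were taken only among genes whose TPM did not overlap between the strains. Results for a few genes are not reported here. Which families and what share of words (40%) left a gene out of the largest differences was set after values were seen. Shared words are the 50-base words of a gene's GENCODE transcripts that occur in transcripts of another gene. Of 23608 genes in the table, 22968 matched a RefSeq symbol of GRCm38.p6 and 551 a synonym.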

Additional observations from a re-analysis of the deposited data

Results flagged for a closer look

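Among the named genes reported here, the strain difference itself changed with KLA, by the interaction test of edgeR, for 7 genes. The values are the difference with KLA minus that at rest, on the log2 scale. Positive changes were found for Arg2 (2.25), Ifi203 (1.33) and Wfdc17 (1.39). Negative changes were found for Ch25h (−2.40), Dusp1 (−2.05), Kcnn4 (−1.26) and Sdc1 (−1.82). Kcnn4, higher in A/J at rest, was at 150 and 128 TPM in A/J and 129 and 123 TPM in BALB/cJ with KLA.

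Between Kupffer cells and resting BMDMs the strain difference changed for 52 named genes reported here, with values of Kupffer cells minus BMDMs on the log2 scale. Positive changes above 2 were found for Ctse (3.71), Acod1 (3.58), Cd300c2 (3.58), Arg2 (3.49), Fblim1 (3.23), H2-DMa (2.89), Fn1 (2.76), Rras2 (2.66), Wfdc17 (2.64), Selenop (2.62), Tlr9 (2.58), Cfb (2.49), Clec2d (2.26), Clec4a1 (2.18), Cd300e (2.12), Cyp27a1 (2.12) and Aldoc (2.04). Positive changes under 2 were found for Tnfaip2 (1.86), Aoah (1.80), Clec4a3 (1.77), Mvd (1.71), Ctsf (1.62), Ncoa4 (1.60), Tlr1 (1.49), Spats2 (1.43), Abca1 (1.40), Psap (1.30), Hk3 (1.23), Fcgrt (1.21), Csf3r (1.199), C1qc (1.19), Abcg1 (1.10), Apoe (1.09), Cd33 (1.07), C1qb (1.03), Pltp (1.03) and Pla2g15 (1.01). Negative changes were found for Ldlrad3 (−8.94), Tspan32 (−6.43), Steap3 (−3.19), Klf4 (−2.80), Id1 (−2.75), Ccnd1 (−2.49), Hsp90aa1 (−2.35), Clec5a (−2.34), Rps2 (−1.98), Cx3cr1 (−1.81), Dusp1 (−1.62), Ccl7 (−1.59), Gclc (−1.37), Tpm3 (−1.35) and Odc1 (−1.16). Ldlrad3 was at 0 TPM in both A/J Kupffer cell libraries and at 6.36 and 7.16 TPM in BALB/cJ, and Tspan32 had no counts in resting BALB/cJ, so the fitted values of these genes depend on the fit and are no bounds. In Kupffer cells Ctse was at 0.332 and 0.064 TPM in A/J and 0.293 and 0.06 TPM in BALB/cJ. Acod1 was at 0.588 and 0.364 TPM in A/J and 0.159 and 0 TPM in BALB/cJ there. Ctse, Acod1, Fn1, Aldoc, Clec5a, Ccl7 and Ldlrad3 were among the genes below the level for testing in Kupffer cells alone. Their changes therefore set a difference in BMDMs against low levels in Kupffer cells. The resting libraries that chose the genes enter every one of these tests, so a change toward a smaller difference is not independent evidence. Cell type, culture and the animals used all differ between Kupffer cells and BMDMs and cannot be told apart.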

How the results depend on the processing

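The filter on low values moved the counts of called genes most, since more genes were tested. Without the TPM filter 1204 genes were called at rest, 1369 with KLA, 573 in Kupffer cells and 1253 for the change between cell types. With no filter on low counts these were 1261, 1499, 727 and 1508, and 213 for the change with KLA. Leaving out 1 library gave 340 to 381 genes at rest, 381 to 684 with KLA, 223 to 344 in Kupffer cells, 55 (without A/J PBS replicate 2) to 124 (without BALB/cJ KLA replicate 2) for the change with KLA, and 604 to 933 for that between cell types. With 1 library left in a group, it is assumed to vary like the others. At rest, other scaling gave 361 genes, DESeq2 363, DESeq2 with shrunken estimates 315, limma 307, and joint fits over 6 or 12 libraries 363 and 364. Of 100 named called genes, 20 lost the call with 1 library left out and 18 under some other setting, and none was reversed under any setting.

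Replicate numbers are shared by the groups, but nothing in the labels pairs them, and the deviations of same-numbered libraries correlated at −0.126 at rest. With the replicate block, 359 genes were called at rest, 510 with KLA, 275 in Kupffer cells, 89 for the change with KLA and 811 for that between cell types. The crossed pairing, added after seeing the data, gave 355 at rest. With 2 libraries per group the spread is poorly known, and genes under 8 TPM in both groups were not compared here.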

Other observations

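The groups described here were picked out after their values were seen, so their counts are descriptions. Genes of serine, one-carbon and amino acid metabolism were higher in A/J for 6 of 14 tested and lower for none: Mthfd2, a mitochondrial folate enzyme, was at 36.4 and 42.5 TPM in A/J and 11.3 and 14.9 TPM in BALB/cJ (log2 1.52 ± 0.13, edgeR adjusted p = 2e-05), the amino acid carrier Slc7a5 at 61.9 and 62.4 TPM against 17.4 and 24.6 TPM, Shmt1 at 12.6 and 14.1 TPM against 4.73 and 5.14 TPM, and the asparagine synthetase Asns at 32.4 and 36.6 TPM against 8.73 and 15.8 TPM. Atf4, the factor that drives many of these genes, had a log2 of 0.26 ± 0.11 (edgeR adjusted p = 0.09). Trib3, another of its targets, was at 22.7 and 22.2 TPM against 1.62 and 6.92 TPM and did not pass (edgeR adjusted p = 0.051).

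In a list of genes of the entry into the cell cycle drawn up afterwards, 9 of 17 were called higher in A/J, of which Ccnd1, Ccne1, Mcm2 and Mcm6 are also in the proliferation list. The others were Cdc45, Ccnd2 (8.46 and 9.75 TPM against 1.67 and 1.57 TPM, log2 2.42 ± 0.12), Ccne2 (1.67 ± 0.15), E2f2 (1.62 ± 0.10) and Cdc6 (1.60 ± 0.11). Of 32 tested genes of lysosomal acidification and Rag GTPases, 3 were called lower and none higher: the GTPase Rragd was at 2.39 and 2.62 TPM against 13.2 and 13.8 TPM (−2.50 ± 0.10, edgeR adjusted p = 9.9e-08), Flcn, which acts on the Rag GTPases, at 35.6 and 32.2 TPM against 66 and 77.1 TPM (−1.15 ± 0.095), and the factor Tfe3 at 69.2 and 64.1 TPM against 129 and 132 TPM (−1.05 ± 0.079). The V-ATPase genes Atp6v1a and Atp6v0d1 had log2 differences of −0.34 each. The share called lower over all genes was 2.86%. Also picked out afterwards, Hal, which breaks down histidine, was at 46.6 and 41.7 TPM against 145 and 159 TPM (−1.86 ± 0.089), with 0.133 and 0.238 TPM in C57BL/6J, and the acute-phase gene Saa3 was lower by −2.50.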
